A study of Mus musculus with 4 samples.

Results

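The genes described here are 8 transcripts that laboratories commonly use as references when they measure RNA, namely *Actb*, *Hprt*, *Tbp*, *Ppia*, *Ywhaz*, *Gusb*, *Polr2a* and *Tfrc*. They were chosen by name, and every non-control probe whose listed gene name equals one of them was taken, which gave 14 probes of 39429 and 8 gene names of 29676. A reference gene serves as the denominator of a relative measurement such as quantitative PCR. The ratio carries the change of the target alone only as far as the reference itself stays level between the conditions compared, and a reference that moves shifts every target set against it by the same factor. No transcript is known to stay level in all tissues and treatments, and low oxygen and lack of glucose are among the conditions in which housekeeping transcripts have been found to move. The members come from unrelated parts of the cell: the cytoskeleton (*Actb*), signalling adaptors (*Ywhaz*), purine salvage (*Hprt*), protein folding (*Ppia*), the lysosome (*Gusb*), iron uptake (*Tfrc*) and the transcription machinery (*Tbp*, *Polr2a*).

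The arrays read RNA of astrocyte-enriched cultures (AECs), which were grown from the cerebral cortex of P1–3 newborn ICR mice as mixed glia and then depleted of microglia with PLX3397, an inhibitor of the receptor that microglia need to survive. Untreated AECs (n = 2) were compared with AECs kept for 15 h under oxygen-glucose deprivation (OGD), that is in glucose-free DMEM under hypoxia (n = 2), a culture model of ischemia. Both groups had received PLX3397, and the study states that oligodendrocyte-lineage cells remained in the cultures. Each sample was hybridized with 1 dye to its own Agilent array, all 4 on 1 slide. Per the study's methods wells were filled from separate cultures of different pups, while the labels name no culture for a sample, and the p-values below measure the spread between these samples.

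The signal of most probes was lower after OGD before any scaling. Untreated arrays had a 75th percentile of 2135 and 2164 and OGD arrays one of 886.9 and 776.4 (processed signal of non-control probes), with 73.7% and 73% of spots against 66.2% and 64.5% well above background. The E1A control transcripts, foreign RNA that the array kit adds to each sample alike, changed far less, by −0.085 on the log2 scale as a mean over 9 probes (SD between probes 0.357). Every member is therefore given on both scales: relative to the 75th percentile of its array, as the study's methods state, and relative to the mean of the 9 E1A probes. The spike-in scale lies 1.29 lower for every probe (a difference of −1.29), and the median change over the 28254 probes tested was 0.18 on the 75th-percentile scale and −1.11 on the spike-in scale. The same mass of RNA was labelled from each sample, so the spike-in scale is per mass of total RNA. The 75th-percentile scale is relative to the other probes of the array. Because the arrays read whole cultures, fewer cells of a type and less RNA per cell cannot be told apart. Of the marker lists, 15 of 15 astrocyte genes and 9 of 14 microglial genes lay well above background on every array. Their summed signal, in multiples of the 75th percentile, went from 234–261 to 385–388 for astrocytes and from 5.02–5.41 to 11.6–11.8 for microglia. For oligodendrocytes (11 of 13) it went from 36.3–38.8 to 43.8–45.6, for NG2 glia (6 of 7) from 2.92–2.98 to 2.57–2.60, for neurons (9 of 14) from 29.8–31.8 to 32.6–35.7 and for meningeal fibroblasts (10 of 11) from 20.8–27.2 to 13.7–15.8. Set against the E1A probes the summed signal was lower after OGD for every list, at 0.641 of the untreated one for astrocytes, 0.921 for microglia, 0.487 for oligodendrocytes, 0.358 for NG2 glia, 0.454 for neurons and 0.252 for meningeal fibroblasts. The microglial sum moved with *Cd68*, a lysosomal protein of phagocytes, which read 1157 and 1213 in untreated AECs and 4301 and 3778 under OGD (3.14 on the 75th-percentile scale and 1.85 on the spike-in scale). Of the 13 microglial genes tested, 5 were called higher and 2 lower on the 75th-percentile scale, namely *Trem2* (−0.93) and *Tmem119* (−0.88), with a median of 0.36. Over all genes 37.1% were called higher and 27.8% lower there. Relative to the E1A probes 10 were lower and 1 was higher, with a median of −0.93, where 83.3% of all genes were lower and 3.84% higher. The other lists were mixed as well. On the 75th-percentile scale 8 of 15 astrocyte genes were called higher and 2 lower, *Sox9* (−1.52) and *Fgfr3* (−0.54). Oligodendrocyte genes gave 4 higher and 3 lower of 12, the latter *Olig2* (−2.5), *Sox10* (−0.76) and *Olig1* (−0.49). For neurons it was 5 and 2 of 12, for NG2 glia 2 and 2 of 7 and for meningeal fibroblasts 2 and 3 of 11. These counts stand beside the same 37.1% and 27.8% of all genes. *Myrf* and *Slc17a7* were well above background on no array, and the part of cell composition in the members' changes was not tested.

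The probes of 4 members matter for what follows, since several probes read the same gene and did not all give the same change. Each is a 60-base sequence, and the first 30 bases are printed as the array design lists them, with positions in mouse build mm9. For *Gusb* the probe that fell relative to the 75th percentile lies at chr5:130465133-130465192 and the one that rose at chr5:130475555-130475614, upstream on the minus strand. For *Tfrc* the order along the plus strand is chr16:32620470-32620529, chr16:32624877-32625093 and chr16:32632255-32632314, and the middle one is the dim probe with the largest change of all 14 on the 75th-percentile scale. The 3 *Ywhaz* probes follow each other on the minus strand from chr15:36720668-36720727 through chr15:36705040-36705180 to chr15:36701205-36701264. The 2 *Tbp* probes lie on the plus strand at chr17:15650578-15651245 and chr17:15654250-15654309. Spans of 668, 217 and 141 bases for the upstream *Tbp*, the middle *Tfrc* and the middle *Ywhaz* probe are longer than the probe itself, as for a probe across a splice junction.
*Gusb*, downstream, 10 spots: ttagttttttggccttggctttgtgaactc
*Gusb*, upstream, 1 spot: tttgcaaggaagtgaggaccaatgacaggt
*Tfrc*, first, 1 spot: tcctgctagatggaacatagattcttcatg
*Tfrc*, middle, 1 spot: atctctatatagagacagcaattggattag
*Tfrc*, last, 10 spots: tgagcaagatcacattaacaaagactagtt
*Ywhaz*, first, 1 spot: taaaaatgagctggtgcagaaggccaagct
*Ywhaz*, middle, 1 spot: tgcaaaaacagctttcgatgaagccattgc
*Ywhaz*, last, 1 spot: cttactcctcaacaattgaagtggactttt
*Tbp*, upstream, 10 spots: gccaagagtgaagaacaatccagactagca
*Tbp*, downstream, 1 spot: gtacatacttttctttcttcagagtactct

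Neither scale left all 8 genes level after OGD. Taking the brightest probe of each gene, *Actb*, *Hprt*, *Ppia*, *Ywhaz* and *Tfrc* were higher and *Tbp* and *Gusb* lower on the 75th-percentile scale (*Actb* and *Ppia* turned under quantile normalization, and *Gusb* with the mean over its probes), 7 of 8 genes past an adjusted p of 0.05 in limma, and *Polr2a* alone was not called. The share called over all 21061 genes was 64.9%, with 37.1% higher and 27.8% lower, so that most genes were called with them and the count is a description, not a result about the members as a set. Relative to the E1A probes 7 of 8 genes were lower past the limit, against 87.1% of all genes called, 3.84% higher and 83.3% lower, and *Ywhaz* was the one not called. By probes, 9 of 14 were called higher and 3 lower on the 75th-percentile scale (all probes: 65% called, 37.9% higher and 27.1% lower), and 1 higher and 11 lower on the spike-in scale (86.4%, 4.47% and 81.9%). The median log2 fold change of the 8 genes was 0.62 against 0.16 over all genes on the former scale and −0.67 against −1.13 on the latter. Under quantile normalization it was 0.10 against −0.024, so the distance to all genes was smaller there. The distance between the extreme genes is the same on both scales, which differ by 1 factor per array, and it was 1.70 on the log2 scale, or 3.24-fold (1.67 under quantile normalization).

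The count on the 75th-percentile scale rested on having both untreated arrays, and without one of them the spread came from the 2 OGD arrays alone. Without untreated replicate 1 it was 4 genes and without untreated replicate 2 it was 2 genes, while the directions stayed, and on the spike-in scale no left-out array moved the count by more than 1.5 times. With 2 arrays a group an exact permutation test of a single gene cannot give a two-sided p below 0.333, so the calls borrow their spread from all probes through limma.

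**Figure D1:**
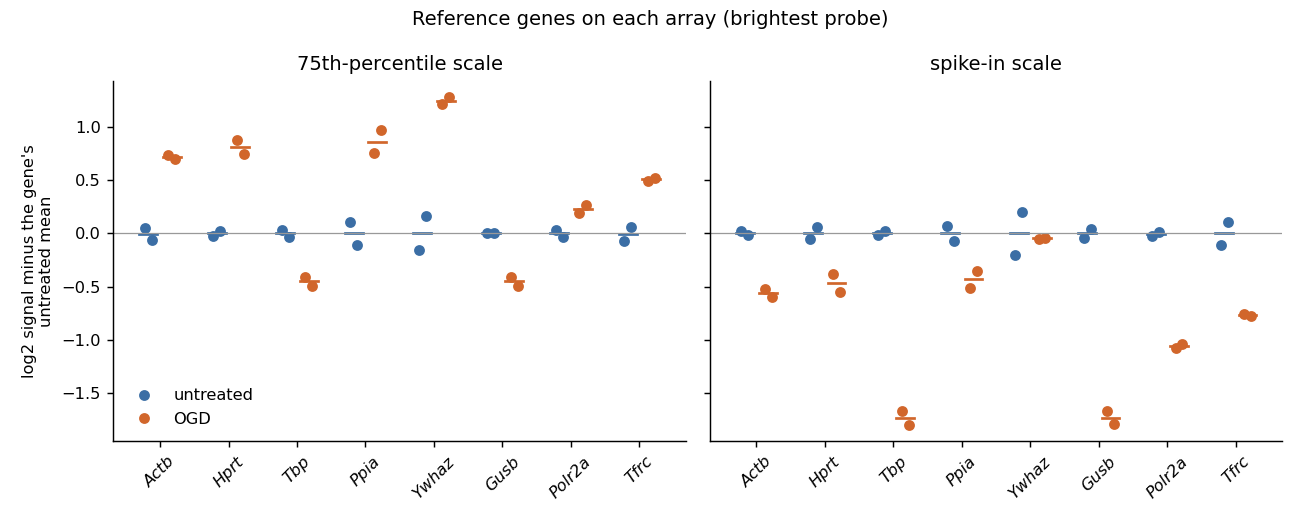
Log2 signal of the brightest probe of each reference gene on the 2 untreated (blue) and 2 OGD arrays (orange), minus that gene's untreated mean, on the 75th-percentile scale (left) and the spike-in scale (right). Points are arrays and short lines are group means. On the left *Ywhaz* is highest after OGD and *Tbp* and *Gusb* lie below the untreated arrays, and on the right 7 genes lie below and *Ywhaz* overlaps with the untreated arrays.

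*Actb* encodes beta-actin, the cytoskeletal protein whose transcript the study used as the reference in its PCR assays. The processed signal of its probe was 172143 and 161693 without treatment and 114877 and 98105 with OGD. Both OGD arrays lay below both untreated arrays before scaling, and above them once each array was divided by its 75th percentile, where the log2 fold change was 0.72 (SE 0.0848; adjusted p = 0.00415 in limma), or 1.65-fold. Relative to the E1A probes *Actb* was 1.48-fold lower (log2 −0.57, SE 0.105; adjusted p = 0.00488 in limma), and with quantile normalization, which gives every array the same distribution, the 75th-percentile value turned to −0.22 (adjusted p = 0.0823). That value also lost its call without untreated replicate 2 (0.67, adjusted p = 0.0513 in limma). *Actg1*, the other cytoplasmic actin, changed by 1.07 and −0.22 on the 75th-percentile and the spike-in scale, the latter not called.

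*Ywhaz*, the 14-3-3 zeta adaptor that binds phosphorylated proteins, had the largest increase relative to the 75th percentile among the members' brightest probes and the smallest change relative to the E1A probes. The brightest probe read 2097 and 2655 on the untreated and 2256 and 2060 on the OGD arrays. Before scaling 1 OGD value lay between the untreated values and the other just below both, and on the spike-in scale both OGD values lay between them, so the groups overlapped. There the log2 fold change was −0.045 (95% interval −0.47 to 0.38; adjusted p = 0.803 in limma), an interval within 1.5-fold of no change, as it was for 6.67% of all genes. On the 75th-percentile scale the groups were apart and *Ywhaz* was 2.37-fold higher (log2 1.24, SE 0.139; adjusted p = 0.00367 in limma). The sign on the spike-in scale was not settled: it was 0.15 without untreated replicate 2, 0.15 with the 5 brighter E1A probes, 0.031 with normexp background correction and 0.015 with all E1A probes, none of them called. Against the E1A probe closest in signal the change was −0.35 (95% interval −0.74 to 0.043), not called either, and this interval reached beyond 1.5-fold. Along the transcript the first, middle and last probes gave 1.44, 1.24 and 0.88 on the 75th-percentile scale and 0.15, −0.045 and −0.41 on the spike-in scale, where only the last was called lower (adjusted p = 0.015 in limma).

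*Hprt*, a salvage enzyme that returns hypoxanthine and guanine to the nucleotide pool, was read by 1 probe with 10 spots on each array. Its signal was 11348 and 11796 in untreated AECs against 8793 and 7045 in those under OGD. The groups did not overlap on either scale, with *Hprt* 1.76-fold higher relative to the 75th percentile (log2 0.82, SE 0.0881; adjusted p = 0.0034 in limma) and 1.39-fold lower relative to the E1A probes (log2 −0.47, SE 0.121; adjusted p = 0.0159). The second of these calls was lost without either untreated array (−0.53 without replicate 1 and −0.41 without replicate 2), without OGD replicate 2 (−0.38) and with the 5 brighter E1A probes (−0.28), and with the methods' t-test its adjusted p was 0.0618.

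*Ppia*, which encodes cyclophilin A, a folding enzyme of the cytosol, read 124250 and 108238 in untreated AECs and 80962 and 81686 under OGD, again with no overlap. It was 1.82-fold higher relative to the 75th percentile (log2 0.86, SE 0.131; adjusted p = 0.00776 in limma) and 1.34-fold lower relative to the E1A probes (log2 −0.43, SE 0.122; adjusted p = 0.0227). Quantile normalization turned the first value to −0.12 (adjusted p = 0.359), and it lost its call without untreated replicate 2 (0.75) and with the methods' t-test (adjusted p = 0.0589). The second lost its call with the methods' t-test as well (adjusted p = 0.0742), without untreated replicate 1 (−0.36), without untreated replicate 2 (−0.50), without OGD replicate 1 (−0.35), with no filter on dim probes (−0.43, adjusted p = 0.0558) and with the 5 brighter E1A probes (−0.23). *Actb* and *Ppia* share the bright end of the arrays with the brightest E1A probes, and these probes did not move alike. The 5 brighter E1A probes changed by −0.28 on average and the 4 dimmer ones by 0.16. Against the single E1A probe closest to it in signal, an alternative chosen after seeing the data, *Actb* changed by −0.23, with no test because that fit had an infinite prior, and *Ppia* by −0.47 (95% interval −0.79 to −0.16), where the call held.

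*Tbp* and *Gusb* were the members that fell on both scales. *Tbp* encodes the TATA-binding protein, the subunit of TFIID that contacts core promoters, and its brightest probe read 1931 and 1888 in untreated AECs and 592 and 490 under OGD. Both OGD arrays stood far below both untreated arrays, and the fall was 1.37-fold relative to the 75th percentile (log2 −0.45, SE 0.0816; adjusted p = 0.0122 in limma) and 3.34-fold relative to the E1A probes (log2 −1.74, SE 0.109; adjusted p = 0.000136). The first of these calls was lost when untreated replicate 1 (−0.43, adjusted p = 0.105) or untreated replicate 2 (−0.48, adjusted p = 0.0915) was left out. The upstream *Tbp* probe is dim, with 114 and 110 against 33.1 and 24.2, and it gave −0.61 and −1.90 on the 2 scales. With normexp background correction the 75th-percentile value of this dim probe turned to 0.31 (adjusted p = 0.015 in limma), whereas the brighter probe stayed at −0.29. On the spike-in scale normexp gave −0.91 for the dim and −1.52 for the brighter probe.

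*Gusb*, the lysosomal beta-glucuronidase, read 3684 and 3743 in untreated AECs and 1157 and 958 under OGD with its brightest probe, which has 10 spots on each array. As for *Tbp*, the OGD arrays stood far below the others. The fall was 1.36-fold relative to the 75th percentile (log2 −0.45, SE 0.0794; adjusted p = 0.0118 in limma) and 3.33-fold relative to the E1A probes (log2 −1.73, SE 0.112; adjusted p = 0.000146). The former call, too, was lost when untreated replicate 1 (−0.45, adjusted p = 0.0966) or untreated replicate 2 (−0.44, adjusted p = 0.104) was left out. The upstream *Gusb* probe read 2206, 2376, 1708 and 1363 in the same order. That probe was 1.73-fold higher relative to the 75th percentile (log2 0.79; adjusted p = 0.00425 in limma) and 1.41-fold lower relative to the E1A probes (log2 −0.50; adjusted p = 0.0155). The 2 probes of *Gusb* therefore moved in opposite directions relative to the 75th percentile, and their ratio on the same array changed by 1.23 on the log2 scale (95% interval 0.98 to 1.48; adjusted p = 0.00116 in limma after scaling on the downstream probe, where 73.2% of all probes were called). A mean over both probes was 0.17 on the 75th-percentile scale (adjusted p = 0.148), so the direction of *Gusb* there is that of the probe chosen.

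*Polr2a* encodes the largest subunit of RNA polymerase II, and it was the member closest to the typical probe. Its signal was 323 and 316 in untreated AECs and 150 and 139 under OGD. The groups did not overlap, with a change of 0.23 relative to the 75th percentile (95% interval −0.0015 to 0.46; adjusted p = 0.0732 in limma). Among the members' brightest probes only this interval lay within 1.5-fold of no change on that scale, as did 18.4% of those of all genes. It differed from the median of all probes by 0.052. Relative to the E1A probes *Polr2a* was 2.08-fold lower (log2 −1.06, SE 0.103; adjusted p = 0.000488 in limma), and with normexp it was called higher on the 75th-percentile scale, at 0.43 (adjusted p = 0.00306), as it was under quantile normalization, at 0.32 (adjusted p = 0.028).

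*Tfrc*, the transferrin receptor that carries iron into the cell, has a transcript known to respond to iron and to low oxygen. The brightest probe read 1348 and 1503 in untreated AECs and 832 and 741 under OGD. The order of the groups turned with the scale, and the probe was 1.43-fold higher relative to the 75th percentile (log2 0.51, SE 0.0894; adjusted p = 0.011 in limma) and 1.71-fold lower relative to the E1A probes (log2 −0.77, SE 0.123; adjusted p = 0.00281). The first of these calls was lost without untreated replicate 1 (0.45) and without untreated replicate 2 (0.58). With the mean over the 3 probes the values were 1.1 and −0.19, the latter not called (adjusted p = 0.16 in limma). The first probe along the gene gave 0.41, not called (adjusted p = 0.0631), and −0.88. The middle probe, in contrast, read 27.6 and 34.3 in untreated AECs and 59.3 and 62.9 under OGD. It was the one member probe with both OGD signals above both untreated signals before scaling, and the one called higher on both scales, with 2.36 and 1.07 (adjusted p = 0.00149 and 0.003 in limma). Its ratio to the brightest *Tfrc* probe rose by 1.85 (95% interval 1.46 to 2.24; adjusted p = 0.000601 in limma after scaling on the brightest probe, 55.8% of all probes called). The probe is dim, and with normexp its values were 1.70 and 0.48.

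**Figure D2:**
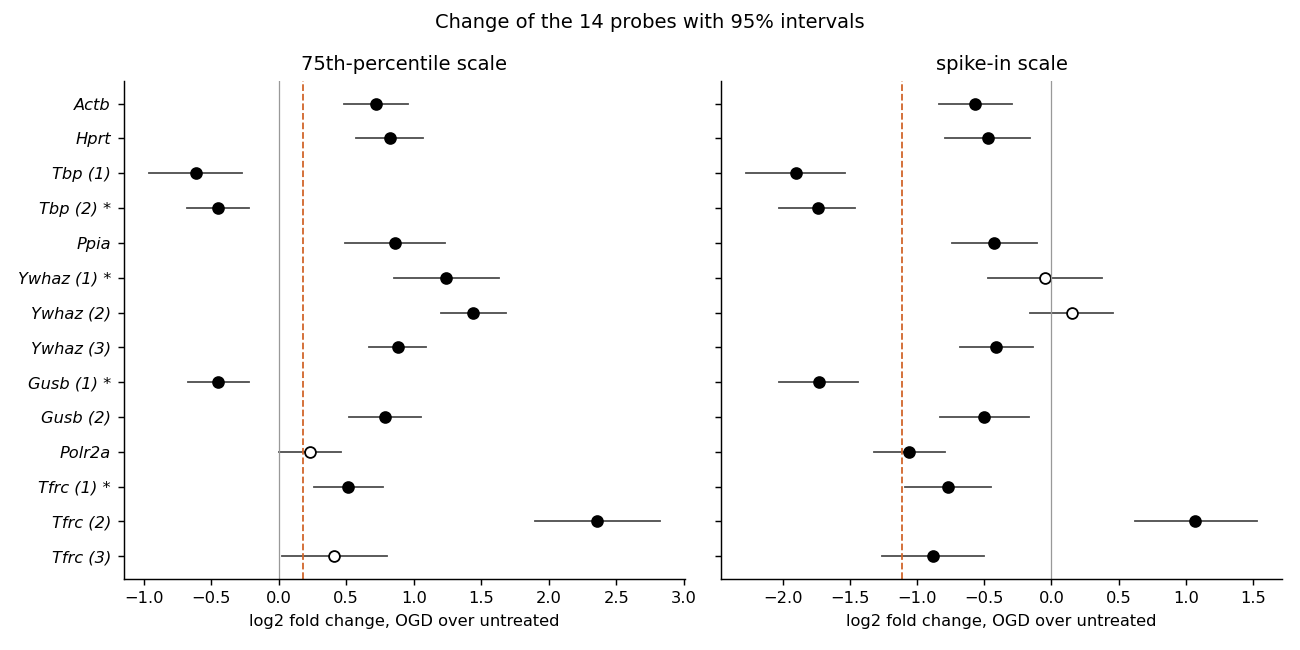
Log2 fold change of the 14 probes, OGD over untreated (n = 2 arrays each), with 95% intervals from limma, on the 75th-percentile scale (left) and the spike-in scale (right). Filled points passed an adjusted p of 0.05, an asterisk marks the brightest probe of a gene with several, and the dashed line is the median of all probes, 0.18 and −1.11. The probes keep their order between the panels, and the 2 *Gusb* probes and the middle *Tfrc* probe, labelled 2, stand apart from the other probes of their gene.

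The remaining pairs of probes of the same gene were compared in the same way. The first over the last *Ywhaz* probe rose by 0.56 (95% interval 0.31 to 0.81; adjusted p = 0.00679 in limma after scaling on the last probe, 70.5% of all probes called), or 1.47-fold. The first over the middle *Ywhaz* probe changed by 0.20 (−0.21 to 0.60), the last over the middle by −0.36 (−0.77 to 0.043), the upstream over the downstream *Tbp* probe by −0.16 (−0.46 to 0.14) and the first over the last *Tfrc* probe by −0.10 (−0.57 to 0.36), none past the limit. These intervals do not show that the probes act alike. With normexp the upstream *Tbp* probe was at 0.31 and the downstream at −0.29 on the 75th-percentile scale, so the sign of their ratio turned. The middle over the first *Tfrc* probe changed by 1.95, for which no test is given because the fit scaled on the first probe had an infinite prior.

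The ratio of 2 members on the same array does not change when an array is multiplied by 1 factor, as on both scales here, but it does change under quantile normalization, which treats bright and dim probes differently. Over the 28 pairs the log2 ratio changed by between 0.0072 and 1.70 in absolute size, and 9 pairs moved by more than 2-fold. In the 27 pairs that could be tested, 18 changed past an adjusted p of 0.05 in limma, 9 did not, and for 5 of these 9 the 95% interval lay within 1.5-fold of no change. The share of all probes called in the fits behind them ran from 55.8% (scaled on *Tfrc*) to 73.9% (scaled on *Tbp*), with 64.6% for *Actb*, 64% for *Hprt*, 73.2% for *Gusb* and 61.3% for *Polr2a*. The pair *Ywhaz* and *Ppia*, with a change of 0.38, was not tested because a fit scaled on either one gave an infinite prior degree of freedom. After quantile normalization, run on the pairs after seeing the data, 20 of 28 pairs were called, 14 of them in both analyses, 5 pairs moved by more than 2-fold, and 7 pairs turned in sign, among them the called pairs *Polr2a* over *Actb* and *Polr2a* over *Ppia*.

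Among *Actb*, *Hprt* and *Ppia* the ratios were not called changed without quantile normalization. *Hprt* over *Actb* changed by 0.096 (95% interval −0.22 to 0.41), *Ppia* over *Actb* by 0.14 (−0.21 to 0.49) and *Ppia* over *Hprt* by 0.044 (−0.43 to 0.51), values within 1.5-fold. After quantile normalization *Hprt* over *Actb* was 0.70 (0.47 to 0.93; adjusted p = 0.00386 in limma) and *Ppia* over *Hprt* −0.60 (adjusted p = 0.0208), both called, and *Ppia* over *Actb* 0.10. *Tbp* and *Gusb* formed the closest pair of all without quantile normalization, with a change of 0.0072 (−0.25 to 0.26) and an SD of the log2 ratio over the 4 arrays of 0.023. This holds for the brightest probe of *Gusb* and not for its upstream probe. After quantile normalization *Gusb* over *Tbp* changed by −0.062, not called, and *Tfrc* over *Hprt* was closer, at 0.055. Relative to *Actb*, *Tbp* was 2.26-fold lower (log2 −1.17, SE 0.117; adjusted p = 0.000516 in limma) and *Gusb* 2.25-fold lower (log2 −1.17, SE 0.121; adjusted p = 0.000588). These distances shrank to −0.21 (1.16-fold, adjusted p = 0.0983) and −0.28 (1.21-fold, adjusted p = 0.0454) after quantile normalization. *Tfrc* changed by −0.21 against *Actb* (−0.55 to 0.14) and *Polr2a* by −0.49 (adjusted p = 0.0162 in limma), which turned to 0.75 and 0.55, both called, after quantile normalization (adjusted p = 0.00485 and 0.0107). The widest pair was *Ywhaz* over *Tbp*, at 1.70 (1.25 to 2.14; adjusted p = 0.00136 in limma), and it stood at 1.61 after quantile normalization.

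**Figure D3:**
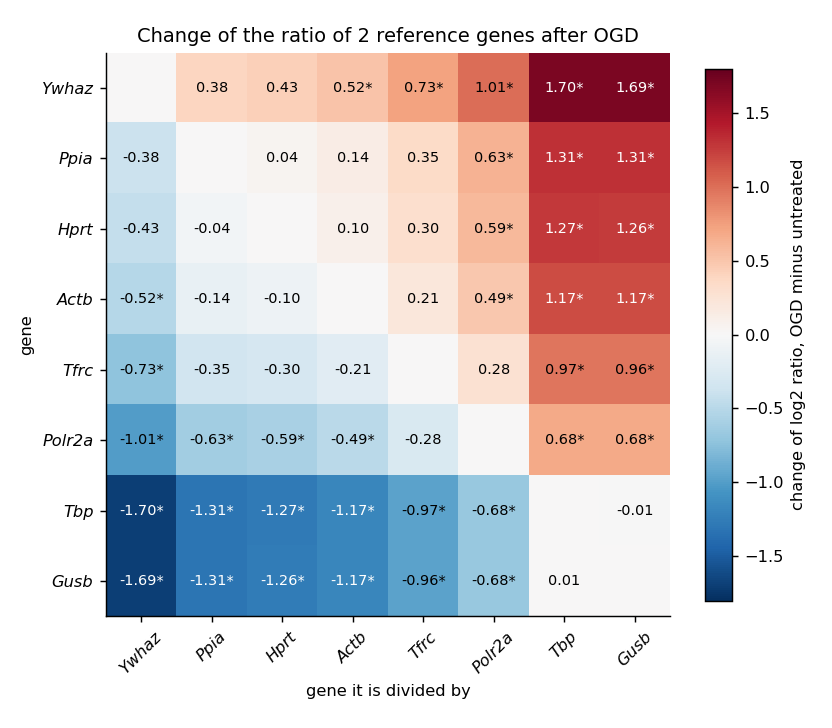
Change of the log2 ratio of each reference gene (rows) to each other one (columns), OGD minus untreated, from the brightest probes on 2 against 2 arrays. Red is higher after OGD and blue lower, and an asterisk marks an adjusted p under 0.05 in limma; the pair *Ywhaz* and *Ppia* was not tested. *Tbp* and *Gusb* differ from the other 6 genes by 0.68 to 1.70 and from each other by 0.0072, shown rounded, in the signal without quantile normalization.

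As a description over the 4 arrays, the mean SD of a member's log2 ratio to the other 7 was lowest for *Tfrc* (0.334) and *Actb* (0.339), followed by *Hprt* (0.364), *Polr2a* (0.371) and *Ppia* (0.399), and highest for *Ywhaz* (0.566), *Gusb* (0.591) and *Tbp* (0.595). This order depends on which genes are compared, since a gene in the middle of the set has low values by construction. The gene with the steadiest ratio to each member was also sought among 44 candidates, made up of the other members, further reference genes and genes known for even expression. For *Actb* it was the ribosomal protein gene *Rpl32* (SD 0.0381), for *Hprt* the ribosomal protein gene *Rps29* (0.0411), for *Polr2a* the respiratory chain gene *Cyc1* (0.0265) and for *Tfrc* the splicing factor gene *Snrpd3* (0.0524). For *Ppia* it was *Tuba1a* (0.0785), an alpha-tubulin gene, and for *Ywhaz* it was *Rab7* (0.14), a late endosomal GTPase gene, at a wider spread than for any other member.

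**Figure D4:**
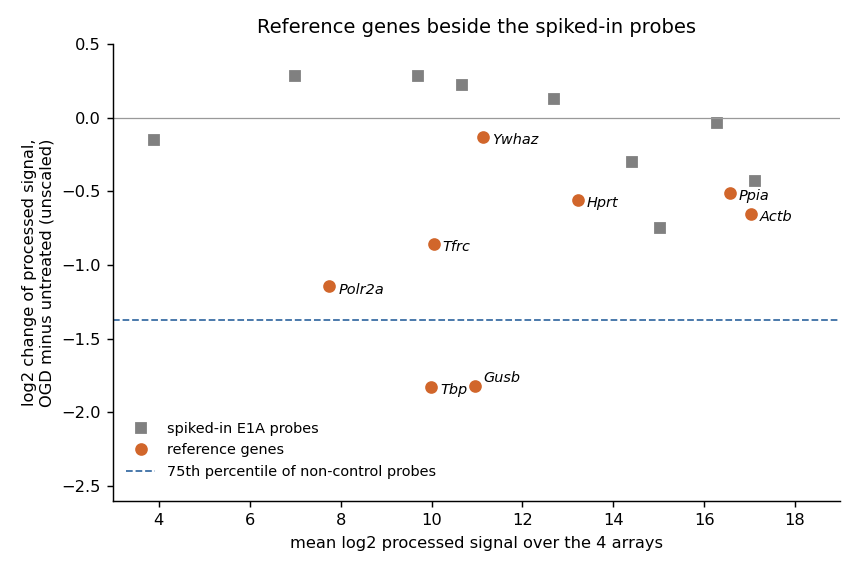
Log2 change of the processed signal before any scaling (OGD minus untreated, means of 2 arrays) against the mean log2 signal over the 4 arrays, for the 9 E1A probes (squares) and the brightest probe of each reference gene (circles). The dashed line is the change of the 75th percentile of non-control probes, −1.37. All 8 genes fell before scaling, *Ywhaz* least and *Tbp* and *Gusb* below the dashed line, and the E1A probes ranged from −0.75 to 0.28.

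Other genes that are used as references were compared with all genes, of which 37.1% were called higher and 27.8% lower on the 75th-percentile scale and 3.84% higher and 83.3% lower on the spike-in scale. Of 28 tested, 17 were higher, 3 lower and 8 not called on the 75th-percentile scale, with a median of 0.71, against 22 lower and 6 not called on the spike-in scale, with a median of −0.58. *Aldoa* (1.56) and *Pgk1* (1.16), both glycolytic enzymes, rose most relative to the 75th percentile, and *Ipo8* (−0.88), a nuclear import receptor, fell most. On the spike-in scale the smallest changes were those of *Pgk1* (−0.13), the elongation factor *Eef2* (−0.16) and *Tpt1* (−0.18), none of them called. Relative to the 75th percentile the smallest were those of *Alas1* (−0.13) and *Cyc1* (0.20), again not called. Of 10 genes known for even expression across tissues 9 were higher and 1 not called, *Psmb2* at 0.057 (95% interval −0.52 to 0.63), with a median of 0.54, and 8 were lower on the spike-in scale, with a median of −0.75.

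The families that the members belong to did not all move as the member did. For *Tbp*, 30 genes of TFIID and the general transcription factors were tested, of which 8 were higher, 13 lower and 9 not called, with a median of −0.22, below the 0.16 of all genes. *Btaf1*, which removes the TATA-binding protein from DNA, fell by 1.93 and the TFIID subunit *Taf8* by 1.17, whereas *Taf3* rose by 1.37 and the related factor *Tbpl1* by 0.86. For *Polr2a*, 24 genes of RNA polymerase II and its associated factors gave 12 higher, 4 lower and 8 not called (median 0.19), where 37.1% of all genes were higher and 27.8% lower. Among them *Polr2b*, the second largest subunit, was at −0.23 and not called, while *Polr2c* rose by 1.07 and *Hexim1*, an inhibitor of transcription elongation, fell by 2.40. On the spike-in scale 28 of 30 and 22 of 24 of these genes were lower, with medians of −1.50 and −1.09, and none was higher, beside 83.3% lower and 3.84% higher over all genes.

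All 6 other 14-3-3 genes were higher on the 75th-percentile scale, as *Ywhaz* was, with a median of 0.85 and a range from *Ywhab* (0.36) to *Ywhag* (1.38), and 4 of the 6 were lower on the spike-in scale. Of 37 actins and actin regulators 32 were higher and 1 lower (median 0.76), led by *Actc1* (1.76), and the gene that fell was *Mkl2* (−1.83), a coactivator of serum response factor. By the E1A probes 30 of these 37 were lower. Of 26 lysosomal hydrolases 19 were higher and none was lower (median 0.65), with *Neu1*, a sialidase, at 1.87, so that the brightest *Gusb* probe fell where no other hydrolase was called lower, while 20 of the 26 were lower on the spike-in scale. These counts stand beside 37.1% higher and 27.8% lower over all genes on the 75th-percentile scale and 83.3% lower on the spike-in scale.

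Cyclophilins and related folding enzymes gave 13 higher, 7 lower and 9 not called of 29 (median 0.37), beside 37.1% higher and 27.8% lower over all genes. *Bsg*, the cell surface receptor of cyclophilin A, rose by 1.79, *Ppib* of the endoplasmic reticulum by 0.60, and *Ppif* of the mitochondrion fell by 1.75. Purine enzymes gave 9 higher, 7 lower and 6 not called of 22 (median 0.20), among them the salvage enzyme *Aprt* at 0.98 and *Pnp*, which splits purine nucleosides, at −1.59. Of these lists 28 of 29 and 20 of 22 genes were lower on the spike-in scale, against 83.3% of all genes.

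For *Tfrc*, 23 genes of iron uptake, storage and export were tested, of which 14 were higher, 3 lower and 6 not called (median 0.53), and 20 were lower on the spike-in scale, beside 37.1% higher and 27.8% lower over all genes on the former and 83.3% lower on the latter. The largest increase was that of *Hmox1*, the enzyme that releases iron from heme, at 3.21, called on the spike-in scale as well (1.92). The largest falls were those of *Slc40a1*, the iron exporter ferroportin, at −3.49 and of *Slc11a2*, a ferrous iron transporter, at −3.10. The brightest *Tfrc* probe, at 0.51, lay close to the median of this list. These list counts on the 75th-percentile scale also rested on the untreated arrays: over the 247 genes of all lists that are not cell type markers, 188 were called (150 higher and 38 lower, or 77 and 57 under quantile normalization; 64.9% of all genes were called), against 107 without untreated replicate 1 and 91 without untreated replicate 2.

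Promoter windows of 6 of the 8 members, from 250 bases before to 50 after a start site, were read from RefSeq (build GRCm38.p6), and those of *Actb* and *Ywhaz* were not analysed here. The windows were searched on both strands for the hypoxia response core in its forms ACGTG and GCGTG, for TATAAA, for CCAAT and for the CArG box bound by serum response factor. These motifs are held by 19.6%, 32.4%, 13.6%, 37.4% and 1.63% of all 32851 windows of the same length. *Tbp* and *Hprt* held none of the 5, *Gusb* held GCGTG at −215, *Ppia* held GCGTG at −167 on the opposite strand and TATAAA at −29, and *Polr2a* held TATAAA at −33. *Tfrc* has a pair of overlapping windows, of which the first held ACGTG at −2, GCGTG on the opposite strand at −117 and −64, and CCAAT at −124, and the second held 1 match of ACGTG and 2 of GCGTG. The windows of *Tbp* and *Gusb*, the pair that moved together, are printed with that of *Ppia*, whose ratio to both changed without quantile normalization, and the first of *Tfrc*, which held the most matches, with the matches in capitals and positions counted from the start site. A match is a description of letters only. The windows are chr17:15499638-15499937 on the plus strand for *Tbp*, chr5:130003000-130003299 on the minus strand for *Gusb*, chr11:6415617-6415916 on the plus strand for *Ppia* and chr16:32608646-32608945 on the plus strand for *Tfrc*.
*Tbp*: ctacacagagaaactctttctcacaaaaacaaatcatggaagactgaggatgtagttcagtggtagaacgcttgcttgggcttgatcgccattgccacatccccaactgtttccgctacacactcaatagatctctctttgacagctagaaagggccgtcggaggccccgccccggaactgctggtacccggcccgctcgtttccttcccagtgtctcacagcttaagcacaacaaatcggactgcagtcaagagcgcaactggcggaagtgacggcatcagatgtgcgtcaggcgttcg
*Gusb*: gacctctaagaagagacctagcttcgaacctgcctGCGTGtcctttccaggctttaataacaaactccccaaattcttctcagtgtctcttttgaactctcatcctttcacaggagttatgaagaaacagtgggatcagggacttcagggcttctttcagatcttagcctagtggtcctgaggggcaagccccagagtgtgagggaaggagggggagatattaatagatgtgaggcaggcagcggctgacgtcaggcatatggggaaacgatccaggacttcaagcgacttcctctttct
*Ppia*: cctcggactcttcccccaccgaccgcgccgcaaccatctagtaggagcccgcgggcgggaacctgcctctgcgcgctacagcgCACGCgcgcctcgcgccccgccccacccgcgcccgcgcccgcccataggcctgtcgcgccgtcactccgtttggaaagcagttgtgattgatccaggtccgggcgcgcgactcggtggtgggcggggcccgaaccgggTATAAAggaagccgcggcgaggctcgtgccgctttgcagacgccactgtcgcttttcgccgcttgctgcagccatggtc
*Tfrc*: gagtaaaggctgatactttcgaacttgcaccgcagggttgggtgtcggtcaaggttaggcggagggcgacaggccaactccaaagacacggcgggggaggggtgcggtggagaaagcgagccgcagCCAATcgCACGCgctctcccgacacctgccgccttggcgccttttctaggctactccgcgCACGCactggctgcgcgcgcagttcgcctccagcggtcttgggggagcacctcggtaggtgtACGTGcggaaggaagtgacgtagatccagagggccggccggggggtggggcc

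The choice of reference gene carries over to every transcript set against it. The study followed 14 transcripts by PCR, of which 13 were tested on the arrays, *Epo* being too dim, and each was divided by each of the 8 members in turn. Of these, *Hk2*, *Adm*, *Adm2*, *Prok2*, *Ptgs2*, *Il6* and *Nfkb1* were followed by PCR in siRNA-transfected cells, after a shorter OGD than that of the arrays. Because the members differ by 1.70 on the log2 scale, each target's change moved by the same 1.70, with *Ywhaz* giving the lowest and *Tbp* the highest value. Scaled on *Actb*, 12 targets were higher and 1 lower past an adjusted p of 0.05 in limma, with 10.7% of all probes higher and 53.9% lower. On that scale *Nr4a1*, an orphan nuclear receptor, was 35.7-fold higher, and over the 8 references it ran from 24.9-fold to 80.6-fold. *Nr4a3* of the same family ran from 71.4-fold to 231-fold, and *Vegfa*, the vascular growth factor, from 4.99-fold to 16.2-fold. The 10 targets with larger changes kept their direction with all 8 references and were called higher with each of the 6 references that allowed a test. All of them but *Nr4a2* and *Il6* are among the genes that the study listed as raised on these same arrays. Their direction is therefore no separate evidence.

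For the 3 targets with smaller changes the reference decided more. *Slc2a1*, the glucose transporter GLUT1, was 1.82-fold higher against *Actb* (adjusted p = 0.00221 in limma), 4.11-fold against *Tbp* and 1.27-fold against *Ywhaz*. *Hif1a*, the oxygen-regulated subunit of hypoxia-inducible factor, was 1.41-fold higher against *Actb* (log2 0.49; adjusted p = 0.0146 in limma), 3.17-fold against *Tbp* and at 0.979 of its untreated level against *Ywhaz* (log2 −0.031). By PCR relative to *Actb* the study saw no effect of 15 h of OGD on *Hif1a*. Its call against *Actb* was lost without untreated replicate 1 (0.45) and without untreated replicate 2 (0.53). *Nfkb1*, a subunit of NF-kB, was 0.502 of its untreated level against *Actb* (log2 −0.99; adjusted p = 0.00259 in limma) and 1.13-fold of it against *Tbp* and against *Gusb* (log2 0.18 and 0.17; adjusted p = 0.305 and 0.292), so that its direction turned with the reference. After quantile normalization the log2 changes against *Actb* were 1.18 for *Slc2a1* and 1.34 for *Hif1a*, both called higher, and 0.047 for *Nfkb1* (adjusted p = 0.74 in limma), so that *Nfkb1* was no longer called lower.

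Over all probes the split between higher and lower calls followed the reference as well. Among the fits that allowed a test, 77.2% of the called probes were higher when scaled on *Tbp*, 76.8% on *Gusb*, 44.9% on *Polr2a*, 25.7% on *Tfrc*, 16.5% on *Actb* and 12.7% on *Hprt*. Scaled on the mean log2 signal of all 8 members the share was 32.8%, with 12 targets higher and 1 lower, where 60.8% of all probes were called, 19.9% higher and 40.9% lower. The median change over all probes was −0.54 when scaled on *Actb* (0.23 after quantile normalization), 0.63 on *Tbp*, −0.052 on *Polr2a* and −1.06 on *Ywhaz*. The number of probes more than 10-fold higher went from 72 with *Ywhaz* to 369 with *Tbp*, and the number more than 10-fold lower from 1076 to 72.

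**Figure D5:**
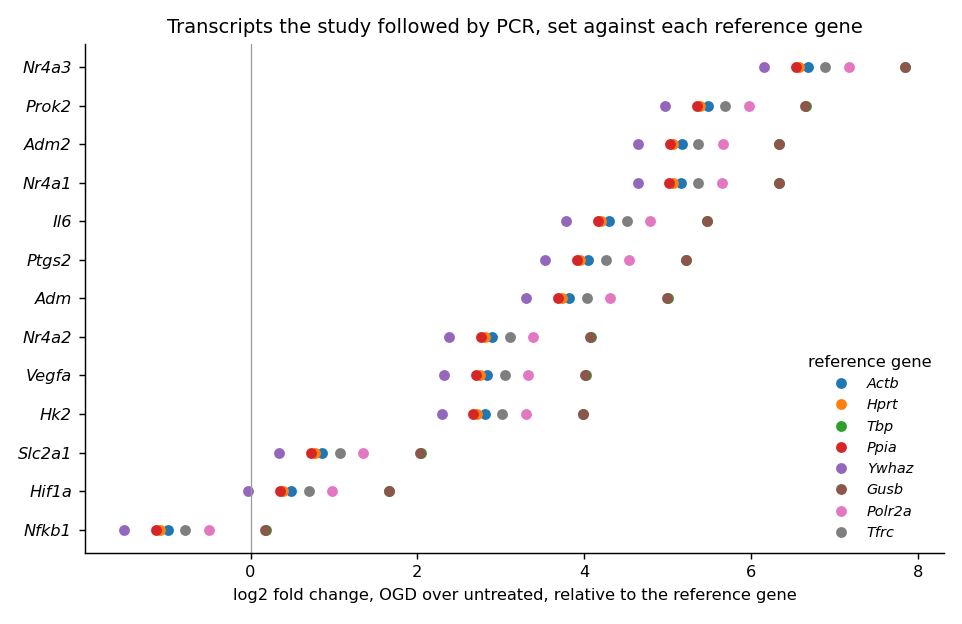
Log2 fold change (OGD over untreated, 2 arrays each) of the 13 transcripts the study followed by PCR, each set against each of the 8 reference genes (colours). Values against *Tbp* lie under those against *Gusb*. Each row spans 1.70 from *Ywhaz* on the left to *Tbp* and *Gusb* on the right, and the rows of *Hif1a* and *Nfkb1* reach across 0.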

How the data were processed

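Mouse AEC RNA was read on 4 one-colour Agilent 4 × 44 K v2 arrays. The deposited values are background-subtracted signal intensity (gProcessedSignal) and spot marks from Feature Extraction (Agilent Feature Extraction 11.5.1.1 per the submitters' processing notes), which the authors did not normalize between arrays. A deposited table with all 4 arrays repeats these values (largest difference 0) and served as an alternative. The members and gene lists were chosen with earlier results of these data known.

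Outlier spots (119 to 132 an array) were left out, log2 signals averaged over the spots of a probe, and each array scaled on the 75th percentile of non-control probes or on the mean of 9 of 10 E1A probes (32 spots each). No spot was saturated. Probes well above background (at least 0.5 of spots) on both arrays of either group were tested with limma 3.58.1 (R 4.3.3), 28254 in all, with Benjamini-Hochberg adjustment over all of them; the prior degrees of freedom were 1.85 and 2.83 on the 75th-percentile and spike-in scales. The script was tested on simulated data. The brightest probe stands for a gene. A pair of genes was tested by scaling all probes on one of them, with those whose fit had a finite prior. Named genes are all members and their probes, the PCR targets, the 2 largest increases and decreases of each list, the smallest changes among reference genes, relatives by name and the steadiest partner of each member. A few genes that this rule names are not reported here. All 14 member probes passed the filter. Alternatives covered background correction (normexp, offset 50), normalization, filters, probe choice, E1A probes, tests and left-out arrays. Promoters and gene tables came from RefSeq. The number of arrays limits the precision.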

Additional observations from a re-analysis of the deposited data

How the results depend on the processing

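With 2 arrays a group, each probe's spread has 2 residual degrees of freedom, and where an array was left out, the lone array was assumed to vary like the other group. Among the 8 reference genes, the number called on the 75th-percentile scale was between 2 and 7 without 1 array and 6 to 8 under the other settings, and among the 247 genes of the lists it was between 91 and 185 without 1 array, against 188. On the spike-in scale the count of 7 stayed between 5 and 7, and the 18 changed pairs stayed between 12 and 21. The values that changed sign on the 75th-percentile scale were *Gusb* with the mean over its probes (0.17) and, under quantile normalization, *Actb* (−0.22) and *Ppia* (−0.12). On the spike-in scale *Ywhaz*, never called, was at 0.031 with normexp, 0.015 with all E1A probes, 0.15 with the brighter ones, between −0.25 and 0.15 without 1 array (0.15 without untreated replicate 2) and at −0.35 against the E1A probe closest in signal. *Nfkb1* turned to 0.18 set against *Tbp*, 0.17 against *Gusb* and 0.26 against the mean of the *Tbp* probes, and to 0.047 against *Actb* after quantile normalization, and *Hif1a* to −0.031 against *Ywhaz*. The cause of these changes was not tested. Fits scaled on *Ppia*, *Ywhaz*, the first *Tfrc* probe or the E1A probe closest in signal to *Actb* had an infinite prior, so no p from them is given. The replicate differences of the groups were hardly correlated (r = −0.0574 across 28254 probes). With 2 arrays a group this cannot tell whether replicate numbers paired the samples, and the labels name no culture. With the replicate number as a block, 7 reference genes were called on either scale and 18 pairs. The dimmer and closest E1A probes, the settings for pairs and lists, and the block, left-out arrays and quantile normalization for the PCR targets were added after seeing the data.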
